A study of Pinus pinaster with 24 samples.

Results

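The root meristem and the developing vascular tissue of the maritime pine (Pinus pinaster) root tip were compared over 12 of the 24 libraries of the series, 6 from each area. The libraries were chosen by their labelled area and by nothing measured. All came from 1-month-old seedlings of the Segura-Alcaraz provenance, which had first been kept for 3 days on a nutrient solution free of nitrogen. Treated plants then received 80 mL of 3 mM potassium nitrate (labelled NO3K), and plants of the control group 80 mL of 3 mM KCl. Root tips were taken 2 h later and cut into 30 µm frozen sections, from which the areas were isolated by laser microdissection. In meristem as in vascular tissue, 3 libraries came from nitrate roots and 3 from KCl roots. Libraries with the same solution and experiment number are called a root-tip set here, which gives 6 sets with 1 meristem and 1 vascular library each.

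The root apical meristem is the zone of dividing cells behind the root cap, which supplies the cap on its outer side and the cell files of cortex and vascular cylinder on the other. In the developing vascular tissue, procambial cells become xylem and phloem. Conifer xylem is built mostly of tracheids, which deposit thick, lignified walls and then die to form conducting elements. The microdissected areas match these tissues only approximately, per the labels' protocols, and the number of seedlings behind a library is not among the labels. The table identifies transcripts by number without gene names, so no marker gene could be used to check the labelled tissue, and no role is given to any transcript. In such samples, fewer cells of a type and less RNA per cell cannot be told apart.

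Values are the deposited CPM (the authors' name for counts scaled to the size of each library), tested on the log2(CPM + 0.5) scale with limma, blocked by root-tip set. This scale understates the differences of transcripts with low levels. Of 51211 transcripts, 45714 reached 1 CPM in at least 3 of the 12 libraries and were tested. The 12 libraries held 45262154 to 51212313 recovered reads, and 3 reads corresponded to at most 0.0649 CPM. All replicate libraries differed by more than sampling noise: the chi-square of reads per transcript was 34.0 to 99.0 over the 12 replicate pairs, and Pearson's r across transcripts was 0.929 to 0.966. The spread between libraries may be technical, since nothing in the labels says that the experiments were separate cultures.

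The meristem and the vascular tissue shared most of their expression and differed strongly in a minority of transcripts. The median absolute difference between the areas was 0.26 on the log2 scale. It was 0.93 between meristem and cap, 0.33 between meristem and cortex, 1.02 between vascular tissue and cap and 0.30 between vascular tissue and cortex. Large differences gave another order. At least 2-fold differences made up 14.0% between meristem and vascular tissue and 12.6% between meristem and cortex, and at least 16-fold ones numbered 401 and 150. The transcripts tested were chosen on meristem and vascular libraries only. A difference past the adjusted p of 0.05 was found for 14417 transcripts, which is 31.5% of those tested. Of these, 7634 (16.7%) were higher and 6783 (14.8%) were lower in the meristem. This slight majority turned under median-of-ratios scaling, with 6931 higher and 7479 lower, and by edgeR, with 6670 higher and 7145 lower.

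A stricter call asked for a difference above 2-fold inside the test itself (limma's treat, adjusted p below 0.05). It was met by 3131 transcripts (6.85%), of which 1354 (2.96%) were higher and 1777 (3.89%) were lower in the meristem. These are called meristem-high and vascular-high transcripts from here on. On recovered reads, edgeR's test against the same limit called more of both, 2224 higher and 2672 lower. The median difference was 2.43 for the meristem-high and -2.64 for the vascular-high transcripts on the log2 scale, against 0.03 over all transcripts tested. The libraries of both areas did not overlap in 1236 of the 1354 meristem-high transcripts and in 1684 of the 1777 vascular-high ones. Over all transcripts tested, the meristem libraries lay wholly above the vascular ones in 7.81% and wholly below them in 7.44%, together 15.2%. The direction was the same in all 6 sets in 1351 of the meristem-high and 1769 of the vascular-high transcripts, against 29.9% of all tested. These counts describe the called transcripts by the values that chose them.

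The balance between the sides changed with the size of the difference. At least 8-fold differences were found in 394 transcripts on the meristem side and in 652 on the vascular side. At 16-fold the counts were 171 and 230, and at 64-fold 27 and 31, again with the meristem side first. The sides also differed in level. Of the 31674 transcripts tested with a mean under 10 CPM over both areas, 840 were meristem-high and 1385 vascular-high. Of the 14040 at 10 CPM and above, 514 were meristem-high and 392 vascular-high. As a share of those tested, meristem-high calls were thus commoner at 10 CPM and above, and vascular-high calls under 10 CPM.

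**Figure D1:**
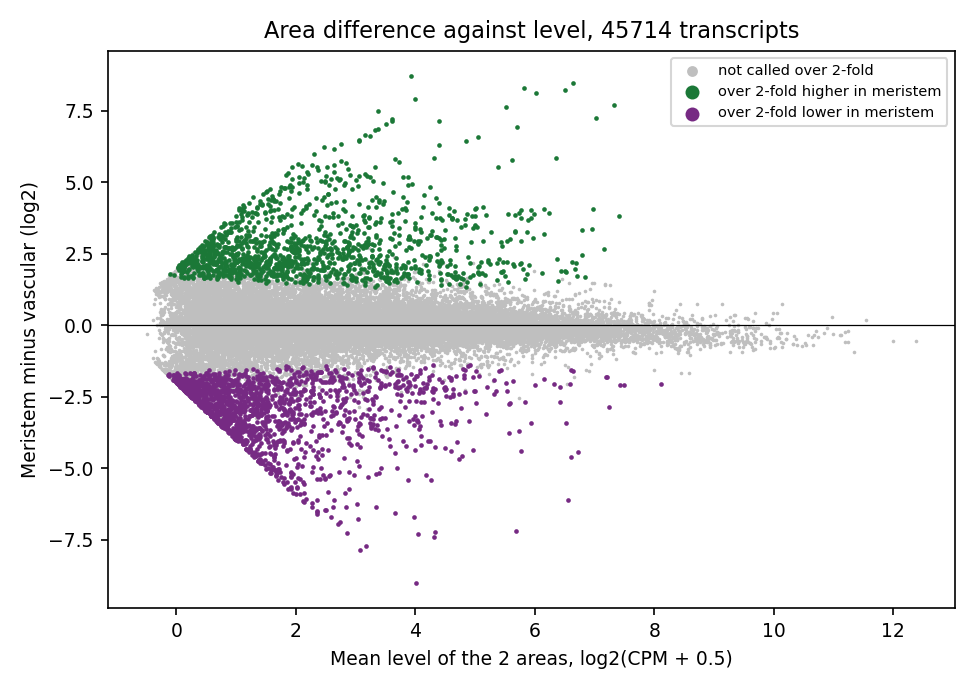
Difference between root meristem and developing vascular tissue (y axis, log2) against the mean level of both areas (x axis, log2(CPM + 0.5)), 1 point per transcript tested. Green points are the 1354 transcripts called over 2-fold higher in the meristem, purple points the 1777 called over 2-fold lower, and the largest differences reached 8.72 and -8.99.

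Vascular-high transcripts mostly had low levels in the meristem. The meristem mean was under 1 CPM for 1291 of the 1777 vascular-high transcripts (72.7%), and the vascular mean was under 1 CPM for 635 of the 1354 meristem-high ones (46.9%). The call favours low levels in the lower area, and a transcript could pass the filter through its higher area alone. Both shares therefore describe the groups as selected. A present or absent pattern was also commoner on the vascular side. In the whole table, 32 transcripts had at least 3 reads in every meristem library and no read in any vascular library, while 147 had at least 3 reads in every vascular library and no read in any meristem library. The vascular mean of those 147 was 2.49 CPM at the median and 31.4 CPM at the highest, and the highest was at least 559-fold above the 3-read limit averaged over the meristem libraries.

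The levels in the root cap and the developing cortex, whose libraries took no part in the calls, set the directions further apart. Meristem-high transcripts were rarely a property of the meristem alone. Their median level was 3.35 in the meristem, 0.61 in the vascular tissue, 4.38 in the cap and 3.23 in the cortex, as log2(CPM + 0.5). For 1206 of the 1354 (89.1%), the cap mean lay nearer to the meristem than to the vascular level, against 52.2% of all transcripts tested, and for 996 (73.6%) the cortex mean did so, against 46.6% of all. The cap had the highest mean of the 4 areas in 785 (58.0%), the cortex in 298 (22.0%) and the meristem itself in 271 (20.0%). Over all transcripts tested these shares were 33.9%, 12.2% and 28.4%. The vascular tissue had the lowest mean of the 4 in 1187 (87.7%), compared with 20.7% of all transcripts tested. As the vascular level is low by selection in this group, this share is a description of the group.

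Vascular-high transcripts stood alone far more often. The vascular mean was the highest of the 4 areas in 1507 of the 1777 (84.8%), against 25.6% of all transcripts tested, though it is high by selection in this group. It was at least 2-fold above both cap and cortex in 1233 (69.4%), at least 4-fold in 778 (43.8%) and at least 16-fold in 129 (7.26%). For the meristem-high transcripts, the meristem was at least 2-fold above both cap and cortex in 127 (9.38%), at least 4-fold in 35 (2.58%) and at least 16-fold in 0. These fold shares were not taken over all transcripts tested, so they only set the called groups against each other. Median levels of the vascular-high transcripts were -0.39 in the meristem, 2.75 in the vascular tissue, -0.39 in the cap and 0.36 in the cortex. As on the meristem side, most lay nearer to the meristem than to the vascular level, by the cap mean in 78.3% and by the cortex mean in 74.1%. The cortex mean lay between the meristem and vascular means for 1308 of them (73.6%), a share that the wide gap asked for by the call itself raises.

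**Figure D2:**
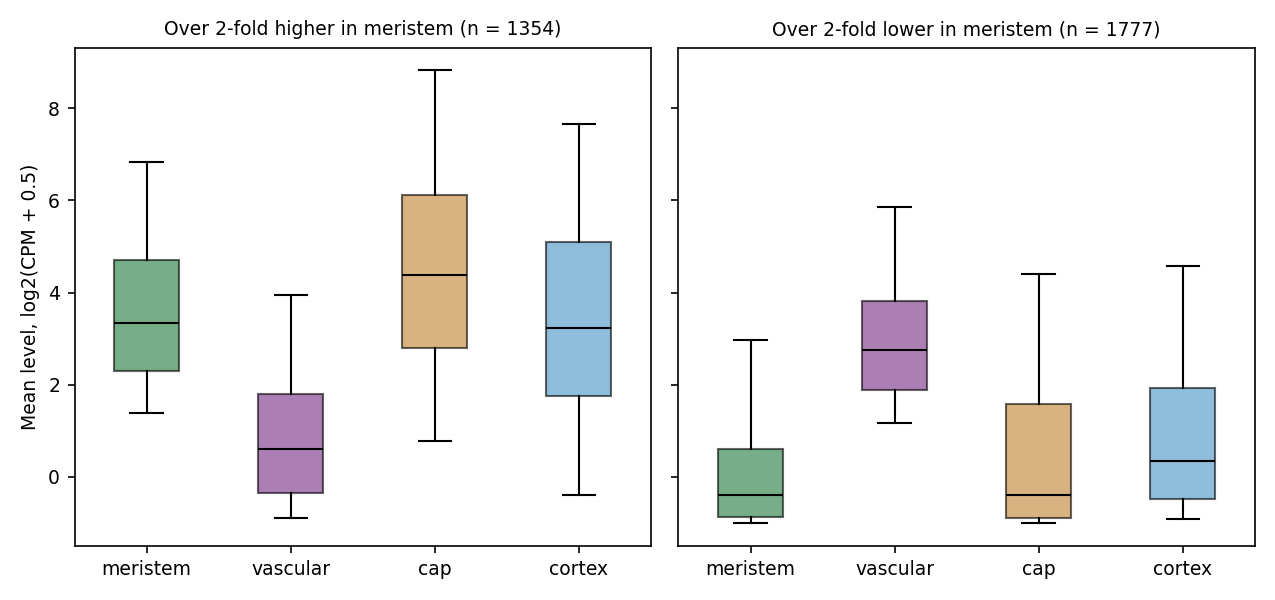
Mean levels (y axis, log2(CPM + 0.5)) in the 4 areas of the 1354 transcripts over 2-fold higher in the meristem (left panel) and the 1777 over 2-fold lower (right panel). Boxes span the quartiles with the median as a line and whiskers the 5th to 95th percentiles over transcripts; the cap median of 4.38 lies above the meristem median of 3.35 on the left, while cap and meristem share a median of -0.39 on the right.

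The present or absent transcripts were also looked up in the cap and cortex libraries. Of the 32 found in every meristem and no vascular library, 31 also had at least 3 reads in every cap library and 18 in every cortex library. None of them stayed under 3 reads in all cap and cortex libraries. Of the 147 found in every vascular and no meristem library, 24 had at least 3 reads in every cap library and 28 in every cortex library. A further look at their absence elsewhere gave 65 with no read in any cap library and 29 that stayed under 3 reads in every cap and every cortex library. The same shares were not taken over the whole table, so these counts have no background beside them. Transcripts with no read made up only 3.56% of the table in cap and 2.19% in cortex libraries on average. Presence in cap or cortex is therefore common among all transcripts.

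By the rule used for naming, the 2 largest differences in each direction are described for each library. They were taken from the over 2-fold calls with the same direction in all 6 sets and a mean of at least 5 CPM in the higher area. The transcript pp_86270 had 786.0, 90.8 and 134.4 CPM in the meristem libraries of nitrate sets 1, 2 and 3, and 408.1, 358.6 and 666.6 CPM in those of KCl sets 1, 2 and 3. Its vascular libraries had 0.149, 0.0188 and 0 CPM with nitrate and 0.696, 0.238 and 0.652 CPM with KCl, which is at most 36 reads in a library. The lowest meristem library, that of nitrate set 2, was still far above the highest vascular library.

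The difference of pp_86270 was 8.72 ± 0.31 on the log2 scale (SE, 6 sets), with an adjusted p of 1.46e-06 by limma's treat, and 7.96 to 11.24 under the other settings. The cap had the most of it, 2991 ± 1677 CPM (SD, n = 6). It is itself on the cap list used below, of transcripts at least 16-fold higher in cap than in cortex libraries. The fit without that list therefore leaves it out. The cortex had 101.0 ± 81.3 CPM (SD, n = 6), with a lowest library of 0.148 CPM in nitrate set 3, so its cortex levels ranged from that of the vascular libraries into that of the meristem libraries.

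The second, pp_188978, was among the 10 most abundant transcripts of the meristem. It had 2727, 965.1 and 2185 CPM in the meristem libraries of nitrate sets 1 to 3 and 2938, 1890 and 1391 CPM in those of KCl sets 1 to 3. In vascular libraries it had 4.33, 0.45 and 11.9 CPM with nitrate and 11.3, 2.97 and 9.38 CPM with KCl. The groups were far apart, and in both areas the lowest library was that of nitrate set 2.

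The difference of pp_188978 was 8.46 ± 0.33 (SE, 6 sets; adjusted p = 2.49e-06, limma's treat). This transcript too was highest in the cap, with 13368 ± 1968 CPM, and it had 1424 ± 703 CPM in the cortex (SD, n = 6 each). In the vascular tissue it averaged 6.72 ± 4.77 CPM (SD, n = 6), so the vascular tissue was the 1 area where it was scarce. Among the 9 tested transcripts within 5 ID numbers of it, 5 were also meristem-high.

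In the other direction, pp_227588 had no read in 4 meristem libraries and 0.653 and 1.37 CPM in those of nitrate sets 2 and 3. Its vascular libraries had 649.9, 514.3 and 586.9 CPM with nitrate and 167.6, 128.7 and 546.9 CPM with KCl. The areas did not overlap, while KCl sets 1 and 2 were the lowest of the vascular libraries.

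The difference of pp_227588 was -8.99 ± 0.32 (SE, 6 sets; adjusted p = 1.43e-06, limma's treat). In the cap, 4 libraries had no read, and nitrate sets 2 and 3 had 2 and 151 reads. The cortex libraries had 82.0, 78.4 and 18.8 CPM with nitrate and 0.844, 1.43 and 169.7 CPM with KCl. KCl sets 1 and 2 were therefore the lowest in the cortex as well as in the vascular tissue.

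The transcript pp_57705 behaved likewise. It had no read in 5 meristem libraries and 22 reads (0.376 CPM) in that of nitrate set 3. In vascular libraries it had 178.1, 254.4 and 313.6 CPM with nitrate and 31.4, 29.5 and 323.4 CPM with KCl. The difference was -7.87 ± 0.40 (SE, 6 sets; adjusted p = 1.14e-05, limma's treat). With so few meristem reads its size depends on the scale, from -6.93 with a pseudocount of 1 to -14.30 by DESeq2, as does that of pp_227588, from -8.18 to -13.49.

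The cap held pp_57705 in 1 library only, with 28 reads in nitrate set 3, the same set as in the meristem. The cortex had 11.5, 11.4 and 1.70 CPM with nitrate and 0.127, 0.113 and 27.0 CPM with KCl, with KCl sets 1 and 2 again the lowest and KCl set 3 the highest, as for pp_227588. Of the 10 tested transcripts within 5 ID numbers of pp_57705, 4 were also vascular-high. For none of the 4 named transcripts was the area difference called as dependent on the solution, with adjusted p-values of the interaction from 0.654 to 0.899 by limma. Their levels with nitrate and with KCl inside an area were not tested against each other.

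**Figure D3:**
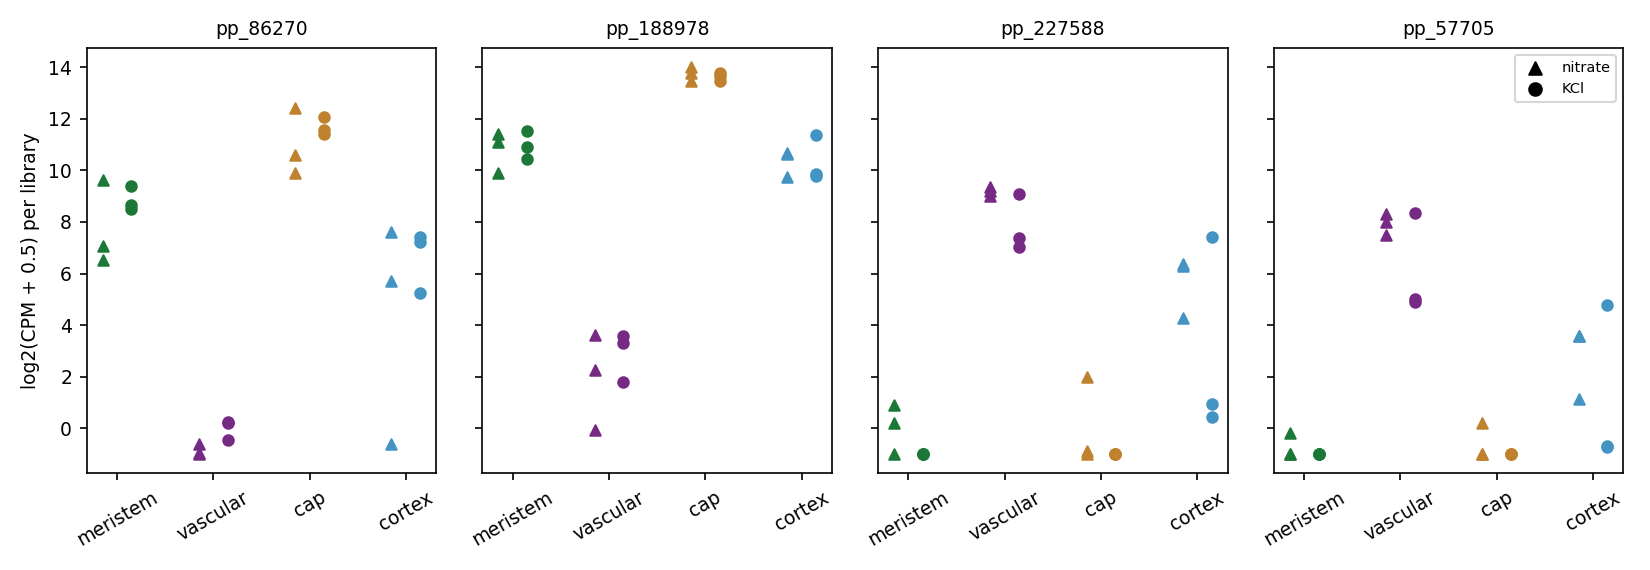
Level of the 4 named transcripts (y axis, log2(CPM + 0.5)) in each of the 24 libraries, by area (x axis), with triangles for nitrate and circles for KCl libraries. The transcripts pp_86270 and pp_188978 were high in meristem, cap and most cortex libraries and low in vascular libraries, while pp_227588 and pp_57705 were high in vascular libraries and at most at 3.49 CPM in any meristem or cap library.

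Neighbouring ID numbers often carried the same call, so counts of transcripts are not counts of independent genes. Of the 947 meristem-high transcripts whose next ID number was also tested, 628 (66.3%) had a meristem-high neighbour, and the longest unbroken run held 19 transcripts. On the vascular side it was 764 of 1177 (64.9%), with a longest run of 17. Counting each unbroken run once left 726 meristem-high and 1013 vascular-high runs.

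The difference between the areas was found again in separate plants under both solutions. With nitrate, 4754 transcripts were higher (10.4%) and 5192 lower (11.4%) in the meristem by limma. With KCl, 4813 were higher (10.5%) and 3844 lower (8.41%). Both tests shared their estimate of the spread but no library. The solutions shared 3221 higher calls, which is 67.8% of the nitrate list and 66.9% of the KCl list, and 2997 lower calls, which is 57.7% of the nitrate list and 78.0% of the KCl list. The number called in opposite directions was 0.

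Of the 4754 transcripts higher with nitrate, 98.2% also had a positive difference in the KCl sets, against 53.7% of all transcripts tested. Their median difference was 1.14 with nitrate and 1.10 with KCl. Of the 5192 lower with nitrate, 96.7% had a negative difference in the KCl sets, against 46.3% of all, and the medians were -1.49 with nitrate and -1.04 with KCl. Across all transcripts tested, which are not independent replicates, the nitrate and KCl differences had a Pearson's r of 0.888.

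No transcript had an area difference that depended on the solution by limma (0 of 45714, 0%), and the smallest adjusted p was 0.239. At an unadjusted p below 0.05 there were 3228 (7.06%). The edgeR test called 0 as well, with 2741 at an unadjusted p below 0.05, and DESeq2 called 50. The standard error of this interaction was 0.28 at the median over all transcripts tested and 0.45 over the vascular-high ones. An interaction of at least 2-fold was estimated for 1845 transcripts (4.04%), and limma called 0 of them. Among these were 499 of the 1777 vascular-high (28.1%) and 106 of the 1354 meristem-high transcripts (7.83%). With 3 sets per solution, changes of the area difference of 2-fold and more could thus go uncalled, and small ones were not detectable. Transcripts with an unadjusted p below 0.05 were commoner among the vascular-high ones (420 of 1777, 23.6%), and in 352 of the 420 the difference was larger with nitrate. Among the meristem-high ones they numbered 141 of 1354 (10.4%), and in only 10 of the 141 was the difference larger with nitrate. Over all transcripts tested, the difference was larger with nitrate in 1882 of the 3228. That number of 3228 fell to 1792 without KCl set 1 and to 1441 without nitrate set 2, as given below.

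**Figure D4:**
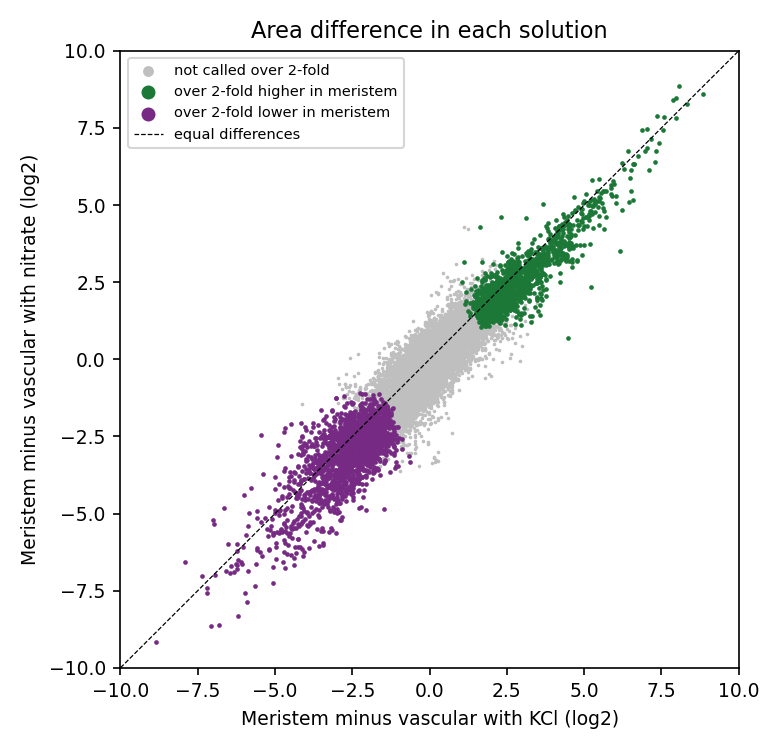
Meristem minus vascular difference (log2) with nitrate (y axis) against that with KCl (x axis), 1 point per transcript tested, with equal differences on the dashed line. The points follow the line (Pearson's r of 0.888), and the vascular-high transcripts (purple) have a median interaction, nitrate minus KCl, of -0.46.

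The 6 sets did not separate the areas equally. The first principal component of the 12 libraries held 56.5% of the variance and parted the areas. On it the meristem libraries lay between -123.5 and -73.4, with nitrate set 2 nearest to the vascular side. The vascular libraries lay between 46.6 and 139.6, with KCl set 1 nearest to the meristem side and nitrate set 2 farthest away. The differences of KCl set 1 and nitrate set 2 had a Pearson's r of 0.445 across transcripts, the lowest of the 15 pairs of sets, whose highest was 0.889.

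Meristem-high transcripts took 3.22% of the CPM in the meristem library of nitrate set 2 and 8.84% in that of KCl set 1. The other meristem libraries lay between these values, and vascular libraries had 0.367% to 0.749%. Vascular-high transcripts took 5.33% of the CPM in the vascular library of nitrate set 2, the highest, and 1.86% in that of KCl set 1, the lowest, while meristem libraries had 0.312% to 0.493%. The median difference of the vascular-high transcripts was -3.14 in nitrate set 2 and -1.90 in KCl set 1. Without KCl set 1, 1358 transcripts were meristem-high and 2070 vascular-high. Without nitrate set 2, the counts were 1426 and 1544. Unadjusted interaction p-values below 0.05 by limma numbered 1792 without KCl set 1 and 1441 without nitrate set 2, each under a share of 0.05 of the transcripts tested. Without both of these sets the number was 2347, no longer under that share. Leaving out each of the other sets in turn gave 3425 to 3919.

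**Figure D5:**
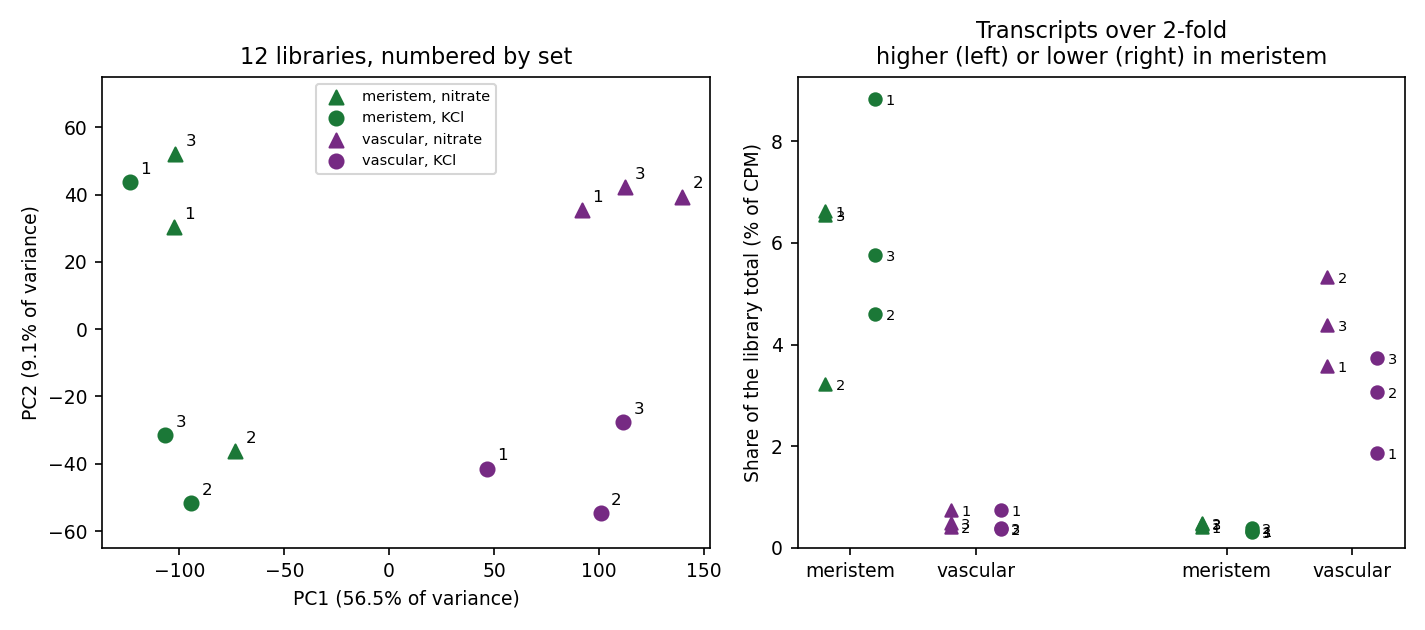
Left, the first and second principal components of the 12 libraries with the share of variance on each axis; right, the share of each library's CPM (y axis, %) held by the 1354 meristem-high and the 1777 vascular-high transcripts. Triangles are nitrate and circles KCl libraries, and the numbers are the experiment numbers; the vascular library of KCl set 1 lies nearest to the meristem libraries on the left and has the lowest vascular-high share (1.86%) on the right.

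Signal of the neighbouring areas was measured with lists that used no meristem or vascular library. A cap list held the 677 transcripts at least 16-fold higher in cap than in cortex libraries. They made up 0.888% ± 0.396 of the CPM in meristem libraries and 0.0603% ± 0.0139 in vascular libraries (SD, n = 6 each). The share was higher in the meristem in 6 of 6 sets, with a two-sided exact sign-flip p of 0.03125, the smallest that 6 sets allow, and 0.0625 after adjustment over the 4 values tested.

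The summed level of the cap list ran from 2958 to 13160 CPM in meristem libraries and from 447.2 to 681.7 CPM in vascular libraries. Of its 677 transcripts, 257 passed the filter on low values. Many of these could pass only through the meristem libraries, as their median level was 3.54 CPM in the meristem and 0.812 CPM in the vascular tissue, so no count of calls is given for them. At 0 CPM in every library were 1 of the 257 in the meristem and 10 in the vascular tissue. The cap share was highest in the meristem library of KCl set 1 (1.47%) and lowest in that of nitrate set 2 (0.322%), and the same libraries were highest and lowest for the meristem-high transcripts. With the transcripts on both lists left out, the meristem-high share was highest in KCl set 1 (7.48%) and lowest in nitrate set 2 (2.93%). The transcripts left in were not chosen to be free of cap signal.

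A fit without the transcripts of the cap list called 1253 meristem-high and 1771 vascular-high. As the list asks for a level 16-fold over the cortex, this fit does not measure all cap signal. Of the 1354 meristem-high transcripts, 935 (69.1%) were higher in the cap than in the meristem, 605 (44.7%) by at least 2-fold. The other 419 had a cap mean not above the meristem mean. The part of cap signal in the meristem libraries in these 935 was not tested.

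A cortex list of 402 transcripts at least 16-fold higher in cortex than in cap libraries took 3.99% ± 0.723 of the CPM in meristem libraries and 4.38% ± 0.459 in vascular libraries (SD, n = 6 each; lower in the meristem in 5 of 6 sets, exact two-sided sign-flip p = 0.5, adjusted p = 0.5). Of its 384 tested members, 81 (21.1%) were higher and 115 (29.9%) lower in the meristem, against 16.7% and 14.8% of all transcripts tested. By the over 2-fold call, 3 were meristem-high and 58 vascular-high, where the shares over all transcripts tested were 2.96% and 3.89%. Their summed level was 25568 to 46323 CPM in meristem and 33304 to 50683 CPM in vascular libraries. Across the 6 vascular libraries the order by this list was the reverse of the order by the vascular-high share, from nitrate set 2 with 3.72% to KCl set 1 with 4.99%. Its part in the vascular-high calls was not tested.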

How the data were processed

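RNA from laser-microdissected root-tip areas was amplified from low input and sequenced as paired-end reads of 150 bp, from RNA with an integrity number above 7, per the labels' protocols. The submitters' processing notes name bcl2fastq and BWA without versions; read counter, transcript reference and scaling are not given here. The deposited signal, scaled counts under the authors' name CPM, was used as it stands; column totals of 786966 to 1016521 CPM in the 12 libraries show that a factor beyond the library total was applied. Per column, 100% of values equalled whole reads times a constant to within 0.02 reads, and these recovered reads were used for edgeR 4.0.16 (quasi-likelihood) and DESeq2 1.42.0.

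The main test was limma 3.58.1 in R 4.3.3 on log2(CPM + 0.5), with a variance trend, over the 12 libraries, blocked by root-tip set and with an area difference in each solution (4 residual degrees of freedom). Transcripts were kept that reached 1 CPM in 3 or more of the 12 libraries; 5497 were left out. Benjamini-Hochberg adjustment ran over all transcripts tested. The test had been planned for plain CPM and fits this signal too. Pairing by number was checked first. Deviations from the group means correlated between meristem and vascular libraries of the same number at 0.363 to 0.579 in 6 of 6 pairs. Between other numbers they correlated at -0.297 to -0.150. Taking deviations from group means makes these negative once the former are positive, so they add no evidence. The pairing rests on these same values, as the labels do not say what a number shares. Members, lists and tests were chosen with earlier results of these data known. By rule, the 2 largest over 2-fold differences per direction are named, with the same direction in all sets, at least 5 CPM and no ID within 5 of one named; for the interaction, called transcripts would have been named, and limma called 0. The marker and gene lists could not be used, as the table pairs no ID with a gene name. Single values per library were compared by an exact sign-flip permutation test over sets. The scripts were tested on simulated data. Intervals and limits at 3 reads cover counting error only.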

Additional observations from a re-analysis of the deposited data

Results flagged for a closer look

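In the meristem, the library of nitrate set 3 had 0.3761 CPM of pp_57705 (22 reads), and the other 5 had no read, which set this library far from the rest of its area. The cap library of the same set had 28 reads and the other 5 cap libraries none. This was the 1 such library among 20 groups of 6 libraries checked with Dixon's ratio, where chance gives about 1 in 20. Groups of 3 libraries, 1 area in 1 solution, are too small for this check.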

How the results depend on the processing

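Of the recomputed counts of called transcripts, 84 stayed within 1.5 times of the reported count and 6 did not. By edgeR with the replicate block, 2224 were over 2-fold higher and 2672 lower. The area difference depended on the solution, in place of 0 transcripts, for 1 without the replicate block, 22 with all 24 libraries, 50 by DESeq2 and 4 without KCl set 1 and nitrate set 2, the last chosen after seeing the data. Without the block, 6576 transcripts were higher and 6373 lower, and 1086 and 1615 over 2-fold. Leaving out each set in turn gave 5610 to 7593 higher, 4960 to 7291 lower, 1093 to 1426 over 2-fold higher, 1480 to 2070 over 2-fold lower and 0 to 0 that depended on the solution. Without both of those sets, 1563 were over 2-fold higher and 2028 lower. The share of higher among all calls was 47.66% to 54.49% over the settings, and lower calls were the majority with median-of-ratios scaling, edgeR and DESeq2. The 4 named transcripts kept direction and call in the 71 recomputed values. With 4 residual degrees of freedom, small interactions cannot be resolved, and those of 2-fold and more can go uncalled. The cause of these shifts was not tested.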

Other observations

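Among abundant transcripts, the direction of the calls depended on their size. Of the 100 transcripts with the highest meristem mean and the 100 with the highest vascular mean, 76 were shared. By limma, 10 of the meristem 100 were higher in the meristem, 9 of them by over 2-fold, and 17 were lower, 0 of them by over 2-fold. Of the vascular 100, 0 were higher and 38 lower, 0 of them by over 2-fold. A high level in an area favours calls toward that area, so each list leans by its choice. The median difference was -0.28 in the meristem 100 and -0.47 in the vascular 100. Among transcripts with a mean over 100 CPM, 8.18% were higher and 21.8% lower in the meristem, but 46 were over 2-fold higher and 25 over 2-fold lower, while among those with 10 to 30 CPM 19.5% were higher and 13.9% lower. The 10 most abundant transcripts of a library held 3.25% ± 0.365 of the CPM in meristem and 3.67% ± 0.410 in vascular libraries (SD, n = 6 each; lower in 5 of 6 sets, exact two-sided sign-flip p = 0.0625, adjusted p = 0.0833).

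Transcripts with no read made up 4.22% ± 0.273 of the table in meristem and 3.88% ± 0.267 in vascular libraries (SD, n = 6 each), higher in the meristem in 6 of 6 sets (exact two-sided sign-flip p = 0.03125, adjusted p = 0.0625). The second principal component held 9.13% of the variance. Vascular libraries lay at 35.4 to 42.1 on it with nitrate and at -54.7 to -27.6 with KCl. Meristem libraries lay at 30.4, -36.2 and 52.0 with nitrate and at 43.8, -51.7 and -31.4 with KCl, so the solutions did not separate there.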
